A study of Mus musculus with 4 samples.

Results

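The genes that handle fatty acids at the capillary wall were followed through the cells of hindlimb muscle: Fabp4, Fabp5, Fabp3, Cd36, Slc27a1, Lpl, Gpihbp1, Angptl4 and Pparg. They were chosen by symbol, and all 9 were found among the 32285 genes of the count matrices. The cells were dissociated from the tibialis anterior and the gastrocnemius of males aged 2 months. All mice carried S100GFP-tg, a reporter with GFP under the S100B promoter that labels Schwann cells (SCs, the glia of peripheral nerve). WT libraries came from S100GFPtg mice and Sod1KO libraries from S100GFPtg Sod1-/- mice, which lack superoxide dismutase 1 in every cell from birth and serve as a model of spontaneous denervation. Muscles of 4 mice per genotype were pooled and sorted into a GFP+ and a GFP- fraction of propidium iodide-negative cells, which gave 4 droplet-based scRNA-Seq libraries: WT GFP+, Sod1KO GFP+, WT GFP- and Sod1KO GFP-. Each group is therefore 1 library, no p-value can be given, and each interval below is a 95% interval for the counting of unique molecular identifiers (UMIs) alone.

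The genes form a chain. Lipoprotein lipase (Lpl) is secreted by parenchymal and stromal cells, and Gpihbp1, an anchor on capillary endothelium, carries it to the vessel lumen, where it cuts fatty acids from circulating triglyceride. Angptl4 is a secreted inhibitor of the lipase. Cd36 is a scavenger receptor that binds long-chain fatty acids at the cell surface, and Slc27a1 (FATP1) is a transport protein with acyl-CoA synthetase activity. The fatty acid binding proteins carry fatty acids inside the cell: Fabp4 is known from adipocytes, macrophages and capillary endothelium, Fabp5 from epidermis, endothelium and macrophages, and Fabp3 from heart and skeletal muscle fibers. Pparg encodes the nuclear receptor PPARγ, the main regulator of adipocyte differentiation, and Fabp4, Cd36, Lpl and Angptl4 are known PPAR target genes.

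In RefSeq's annotation of GRCm38.p6, Fabp5 (chr3:10012585-10016610) and Fabp4 (chr3:10204342-10208616) are both on chromosome 3. Lpl (chr8:68880555-68906932) and Slc27a1 (chr8:71568728-71587307) are both on chromosome 8. Fabp3 is at chr4:130308738-130315463, Cd36 at chr5:17781690-17888959, Pparg at chr6:115360879-115490404, Gpihbp1 at chr15:75596630-75598213 and Angptl4 at chr17:33774900-33781575. Fabp3 overlaps another protein-coding gene, Zcchc17, and Fabp3 and Fabp5 have near-identical copies (Fabp3-ps1 and Fabp5l2) that may share reads with them, so counts of these 2 members are the less certain ones. The RefSeq promoter table (GRCm38.p6, 250 bases before to 50 bases after each start) held windows for 4 of the 9 members: Fabp3, Cd36, Pparg and Slc27a1. A pair is printed because these genes had different distributions below, with Cd36 high in endothelium and Fabp3 in smooth muscle. Capitals mark the half-site AGGTCA of nuclear receptors, the GC box GGGCGG and the CCAAT box, each on either strand. The Cd36 window lies at chr5:17835847-17836146 on the minus strand and the Fabp3 window at chr4:130308488-130308787 on the plus strand. The Cd36 window is thus inside the gene's span and not at its outermost start. Which start these cells use was not tested.
Cd36: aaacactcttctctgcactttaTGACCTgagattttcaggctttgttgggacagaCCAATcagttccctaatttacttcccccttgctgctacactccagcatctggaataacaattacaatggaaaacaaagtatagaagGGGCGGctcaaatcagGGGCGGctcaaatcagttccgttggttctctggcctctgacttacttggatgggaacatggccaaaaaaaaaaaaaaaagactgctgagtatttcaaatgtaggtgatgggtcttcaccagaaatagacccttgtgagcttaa
Fabp3: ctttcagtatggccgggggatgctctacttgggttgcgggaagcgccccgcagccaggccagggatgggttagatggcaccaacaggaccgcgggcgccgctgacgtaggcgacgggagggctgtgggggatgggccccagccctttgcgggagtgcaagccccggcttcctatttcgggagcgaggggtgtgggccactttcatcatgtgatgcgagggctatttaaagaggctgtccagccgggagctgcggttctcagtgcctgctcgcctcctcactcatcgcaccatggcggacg
The Cd36 window held 1 such half-site (on the opposite strand), 2 GC boxes and 1 CCAAT box, which 16.3%, 35.7% and 37.4% of all 32851 promoter windows also held. The PPAR element DR1, which repeats that half-site after 1 base, stood in 0.0396% of all windows and in no window of a member, and the TATA box TATAAA (13.6%), the E-box CACGTG (7.15%) and the CArG box (1.63%) were searched as well. The Fabp3 window held none of these letters, which says only that they are not in these 300 bases.

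After filtering and doublet removal, the libraries held 4557 (WT GFP+), 5925 (Sod1KO GFP+), 1638 (WT GFP-) and 5143 (Sod1KO GFP-) cells. Before these steps the median over all deposited barcodes was 6152.5 to 13825.5 UMIs, the lowest in WT GFP-. Any pair of libraries shared at most 10 cell barcodes. Cells were clustered without the 9 members, and clusters were called, for example, endothelial-like from marker lists. Of the endothelial markers, 9 of 9 were detected in the endothelial-like cells of every library. All 9 were also detected in several other classes, so detection alone does not set endothelium apart. WT GFP- stood apart in that 2 clusters, 123 endothelial-like cells and 224 cells mixing endothelial and pericyte markers, came almost only from it. Sod1 itself was detected at 91.1, 98.0, 123 and 113 CPM (the gene's UMIs over all UMIs of the group, in the usual scaling of counts) in WT GFP+, Sod1KO GFP+, WT GFP- and Sod1KO GFP-. These 3' tags do not show whether the coding gene is intact, so the tags give no check of genotype, and WT and Sod1KO stand for the libraries so labelled. UMIs are 3' tags that are not scaled by gene length, so levels are compared within a gene only.

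**Figure D1:**
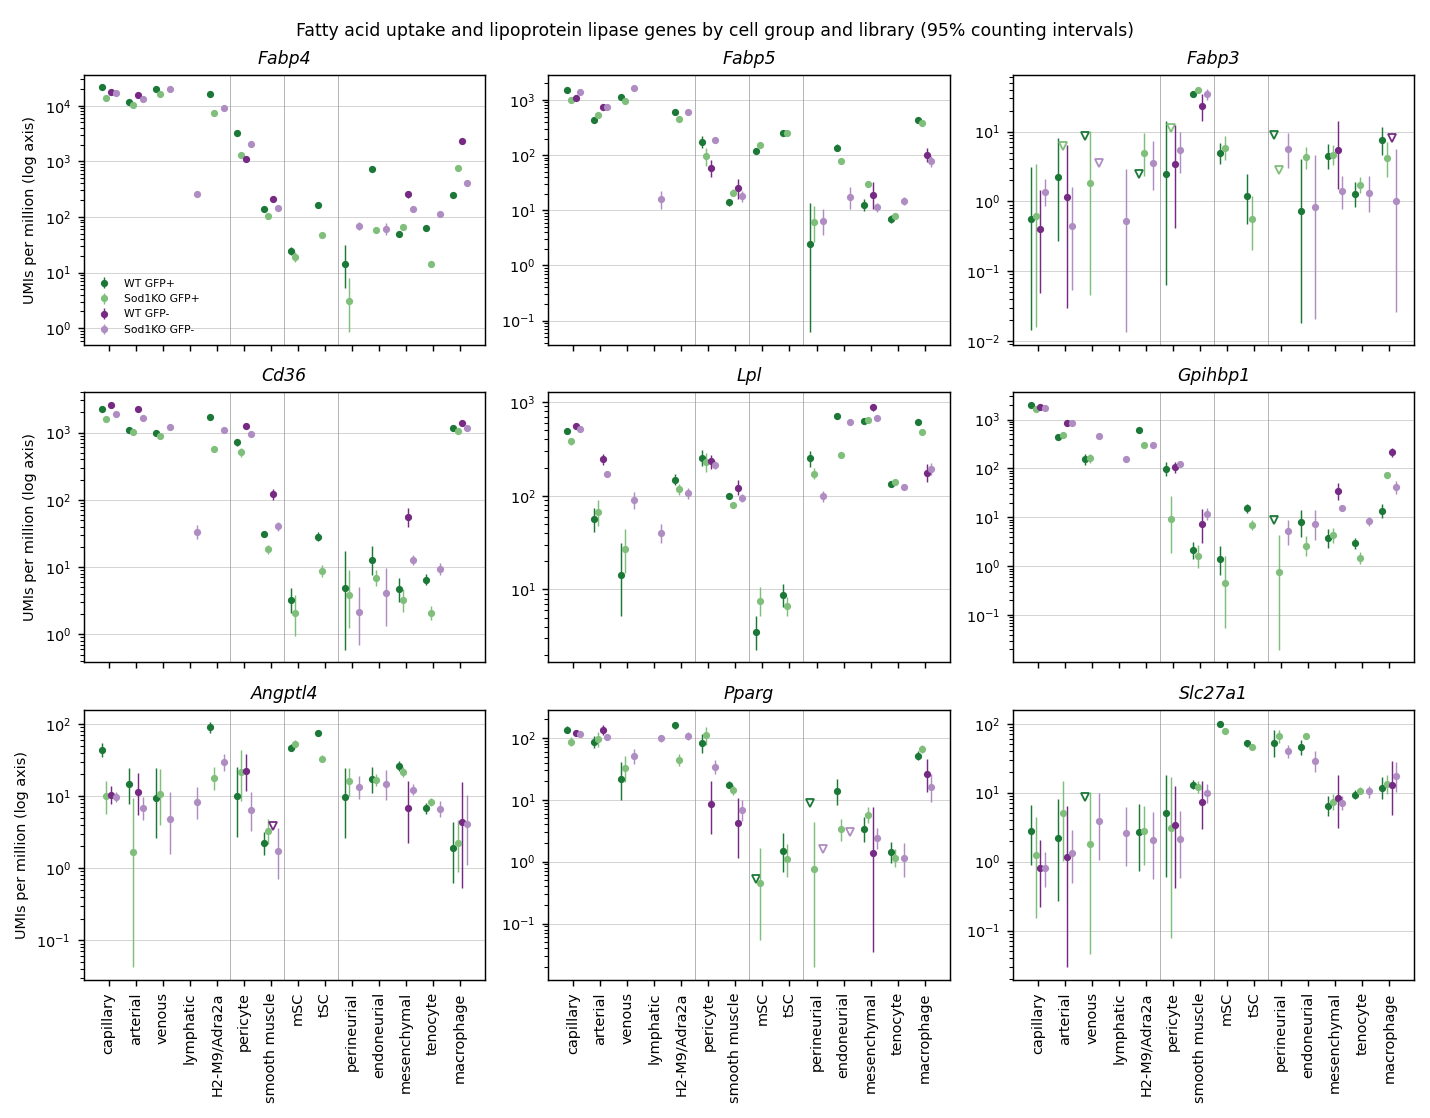
Level of each member in CPM (log axis) in each cell group and library. Points are class sums, bars are 95% counting intervals and downward open triangles are upper limits where no UMI was counted. Among named classes Fabp4 and Gpihbp1 peaked in endothelial-like groups, Cd36 and Pparg were high in these and also in pericyte-like or macrophage-like cells, Slc27a1 peaked in mSC-like cells and their neighbors, Fabp3 in smooth muscle-like cells and Lpl in mesenchymal-like cells.

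Fabp4 was carried by almost every endothelial-like cell, with a UMI in 95.5% (WT GFP+), 92.3% (Sod1KO GFP+), 99.2% (WT GFP-) and 97.5% (Sod1KO GFP-) of them. Its level there was 17636, 10874, 14936 and 14751 CPM in the same order. The Sod1KO GFP+ library was the low one. Inside the endothelial-like class, capillary-like cells stood at 21665, 13710, 17797 and 17287 CPM and arterial-like cells at 11489, 10165, 15430 and 13299 CPM. Lymphatic-like cells, with enough cells in Sod1KO GFP- alone, had 261 CPM, and 2 cells held 50% of those UMIs. Outside endothelium the level in the GFP+ libraries was 24.6 and 19.3 CPM in mSC-like cells (myelin SCs) and 137 CPM and 104 CPM in smooth muscle-like cells, WT before Sod1KO. An unnamed cluster of shallow cells (median 1414 UMIs) led by Cfd and Retn reached 15015, 19460, 18843 and 15366 CPM. Its 9 endothelial markers summed to 4166, 3694, 5935 and 4516 CPM. In endothelial-like cells they summed to 6838, 6034, 7917 and 7019 CPM, and in mSC-like cells to 420 CPM (WT GFP+) and 365 CPM (Sod1KO GFP+). The cluster's erythroid genes summed to 69809 to 253984 CPM, while its adipocyte markers summed to 133, 1735, 25.3 and 0 CPM.

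Among the named classes Fabp5 was also highest in endothelial-like cells, at 949, 702, 882 and 1130 CPM in WT GFP+, Sod1KO GFP+, WT GFP- and Sod1KO GFP-. Unlike Fabp4 it had clear levels in SCs and macrophages. In tSC-like cells (terminal SCs, which cap the neuromuscular junction) it stood at 256 CPM (WT GFP+) and 254 CPM (Sod1KO GFP+), with a UMI in 80.3% and 71.9% of cells. mSC-like cells had less, 120 and 151 CPM, with intervals clear of those of tSC-like cells. Macrophage-like cells had 424, 375, 100 and 77.4 CPM, so both GFP+ libraries were above both GFP- libraries. Perineurial-like cells, the sheath around nerve fascicles, were at the low end with 2.4 to 6.4 CPM in libraries with enough cells.

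Fabp3, the muscle fiber form, was nearly absent from endothelial-like cells, with 3, 11, 8 and 32 UMIs in the 4 libraries. Smooth muscle-like cells held it at 35.1 CPM (WT GFP+), 39.4 CPM (Sod1KO GFP+), 22.9 CPM (WT GFP-, 22 UMIs) and 34.0 CPM (Sod1KO GFP-). The next level was that of a mesenchymal-like cluster led by Inmt and Gdf10, at 15.1, 12.1 and 11.3 CPM in WT GFP+, Sod1KO GFP+ and Sod1KO GFP-. mSC-like cells had 4.9 and 5.9 CPM. The highest level of all was in an unnamed cluster with few UMIs per cell (median 1122) led by muscle fiber genes such as Tnnc2, Ckm, Myl1 and Acta1. Its 38 Sod1KO GFP- cells had 253 Fabp3 UMIs (851 CPM) of the 539 in that library. A single cell held 159 of them, and without it 94 UMIs and 671 CPM remained. By contrast, the cluster's 89 Sod1KO GFP+ cells had 5 and its 71 WT GFP+ cells had 0, which allows at most 34.9 CPM by the exact interval. WT GFP- had 1 such cell, so no comparison of genotypes can be made there.

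Cd36 followed Fabp4 in endothelial-like cells, with 1719, 1011, 2121 and 1624 CPM in WT GFP+, Sod1KO GFP+, WT GFP- and Sod1KO GFP-. Sod1KO GFP+ was again the lowest. Macrophage-like cells, which use Cd36 as a scavenger receptor, held 1149, 1046, 1391 and 1175 CPM, the same range as endothelium in Sod1KO GFP+, and pericyte-like cells held 716, 505, 1242 and 944 CPM. SCs had little: 3.2 and 2.0 CPM in mSC-like cells and 28.3 and 8.7 CPM in tSC-like cells of WT GFP+ and Sod1KO GFP+.

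Slc27a1 had the reverse distribution. Endothelial-like cells held very little, at 2.35, 2.34, 1.09 and 1.33 CPM. The highest levels were in nerve-associated cells: mSC-like cells stood at 99.0 CPM (WT GFP+, 705 UMIs) and 78.8 CPM (Sod1KO GFP+, 347 UMIs). A cluster mixing mSC and perineurial markers had 81.8 and 86.8 CPM, perineurial-like cells 53.3 and 66.5 CPM, tSC-like cells 51.8 and 46.4 CPM and endoneurial-like fibroblasts 46.0 and 65.8 CPM. In Sod1KO GFP+ the intervals of the mSC-like and the mixed cluster overlapped, so their order is not given. Smooth muscle-like, macrophage-like and tenocyte-like cells lay between 7.3 and 17.3 CPM in all libraries with enough cells.

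Lpl was a gene of the stroma. The mesenchymal-like cluster led by Myoc and Fst held 922, 958, 949 and 806 CPM in WT GFP+, Sod1KO GFP+, WT GFP- and Sod1KO GFP-, the highest level of any group in each library. Endoneurial-like fibroblasts had 715 CPM in WT GFP+, 269 CPM in Sod1KO GFP+ and 612 CPM in Sod1KO GFP-. In WT GFP+ their interval overlapped those of the Inmt/Gdf10 cluster (678 CPM), so these cannot be ranked, and it lay above that of macrophage-like cells (614 CPM). Capillary-like endothelial cells also held Lpl, at 490, 380, 553 and 520 CPM, against 55.8, 66.6, 245 and 172 CPM in arterial-like cells. SCs held the least, with 3.5 and 7.5 CPM in mSC-like and 8.7 and 6.6 CPM in tSC-like cells.

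Gpihbp1, the anchor of the lipase, had its highest level in capillary-like cells in all 4 libraries, at 1988, 1664, 1838 and 1767 CPM. Arterial-like cells had 442, 494, 841 and 838 CPM, and venous-like cells 155, 161 and 470 CPM in WT GFP+, Sod1KO GFP+ and Sod1KO GFP-. The capillary, arterial, venous order held in each of those 3 libraries with intervals apart. mSC-like cells had 1.4 and 0.45 CPM.

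Angptl4 was low and spread over several classes. Among the main classes of WT GFP+ its highest levels were 75.5 CPM in tSC-like cells, 49.5 CPM in endothelial-like cells and 47.0 CPM in mSC-like cells. In Sod1KO GFP+ the same classes stood at 33.3, 12.3 and 53.1 CPM, so mSC-like cells were then above the other two. In the GFP- libraries, endothelial-like cells had 14.1 CPM (WT) and 10.4 CPM (Sod1KO). Macrophage-like cells were low everywhere.

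Pparg was detected in endothelial-like cells at 123, 65.6, 109 and 109 CPM, so 3 libraries were close together and Sod1KO GFP+ was lower. It was close to absent from SCs, with 0 UMIs in WT GFP+ mSC-like cells, which allows at most 0.518 CPM, and 1.5 and 1.1 CPM in tSC-like cells. Pericyte-like cells had 82.6, 110, 8.6 and 34.4 CPM and macrophage-like cells 51.9, 66.3, 26.2 and 16.3 CPM. Both classes thus had higher levels in the GFP+ than in the GFP- libraries. In WT the macrophage-like intervals overlapped ([43.6, 61.4] in GFP+ and [13.5, 45.8] in GFP-), and 1 cell held 8 of the 12 WT GFP- UMIs. In Sod1KO GFP+ macrophage-like cells were close to endothelium, and without 1 cell that held 28 of 208 UMIs they were below it at 57.6 CPM. Pericyte-like cells of Sod1KO GFP+ were not below endothelium. The pericyte-like value of 110 CPM rests on 36 UMIs, of which 1 cell held 16, and without that cell it was 68.0 CPM. An unnamed cluster of shallow cells (median 3906 UMIs) led by Dach1, Atp12a and Slc1a1 reached 179 CPM in WT GFP- (21 UMIs in 21 cells) and 231 CPM in Sod1KO GFP- (116 UMIs in 91 cells), with overlapping intervals.

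The distributions were compared across 69 points (22 groups in up to 4 libraries, log2 CPM, 13941 genes), which share libraries and cells, so r is a description only. Fabp4 and Gpihbp1 were alike (r = 0.95), as were Fabp4 and Cd36 (0.92), Fabp4 and Fabp5 (0.86) and Fabp4 and Pparg (0.86). Slc27a1 ran opposite to Fabp4 (r = −0.71). The genes most like Fabp4 were Flt1, Myct1 and C1qtnf9 (0.96, 0.96 and 0.95), those most like Cd36 were Cd93, Flt1 and Fabp4 (0.96, 0.95 and 0.92), and those most like Gpihbp1 were Myct1, Gimap6 and Tie1 (0.97, 0.96 and 0.96). Pparg was nearest to Gimap6, Smagp and Rapgef5 (0.89, 0.89 and 0.88), and Fabp5 to Adgrg1, Tspan13 and Lmo1 (0.91, 0.90 and 0.88). Lpl, Angptl4 and Fabp3 had no partner above 0.71: their nearest genes were Adh1 (0.71), Lztfl1 (0.71) and Cav3 (0.70).

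Because Fabp4 makes up over 1% of all UMIs in endothelial-like cells, its free RNA can enter any droplet. In each group the UMIs of 6 endothelial genes (Cdh5, Kdr, Tie1, Cldn5, Ptprb and Ecscr) were counted, and the number of member UMIs that would accompany them at the endothelial ratio of the same library was set beside the counted number. Of 70 values of Fabp4, Cd36 and Gpihbp1 outside endothelium, 52 had an expected number of at least 50% of the counted one and 38 of at least 100%. Only 9 were under 20%. Fabp4 in tSC-like cells did not exceed the expected number (188% and 215% of the counted UMIs in WT GFP+ and Sod1KO GFP+). Nor did Fabp4 in macrophage-like cells of 3 libraries (159%, 134% and 108% in WT GFP+, WT GFP- and Sod1KO GFP-). Cd36 was above it in pericyte-like cells (17.8%, 5.98%, 10.7% and 11.8%) and in macrophage-like cells (3.3%, 5.3%, 31.4% and 4.2%). Fabp5 in tSC-like cells was far above it (6.5% and 2.6%), and Slc27a1 in mSC-like cells was too (0.2% to 0.3%). Doublets and endothelial genes that another cell type itself uses would raise the expected number in the same way, so it is an upper figure. In mSC-like cells of WT GFP+, a class included in the 70 values, it came to 80.7 Pparg UMIs where 0 were counted. In the cluster mixing mSC and perineurial markers it came to 53.8, again with 0 counted. A value of 100% or more therefore does not show that the counted UMIs are background.

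**Figure D2:**
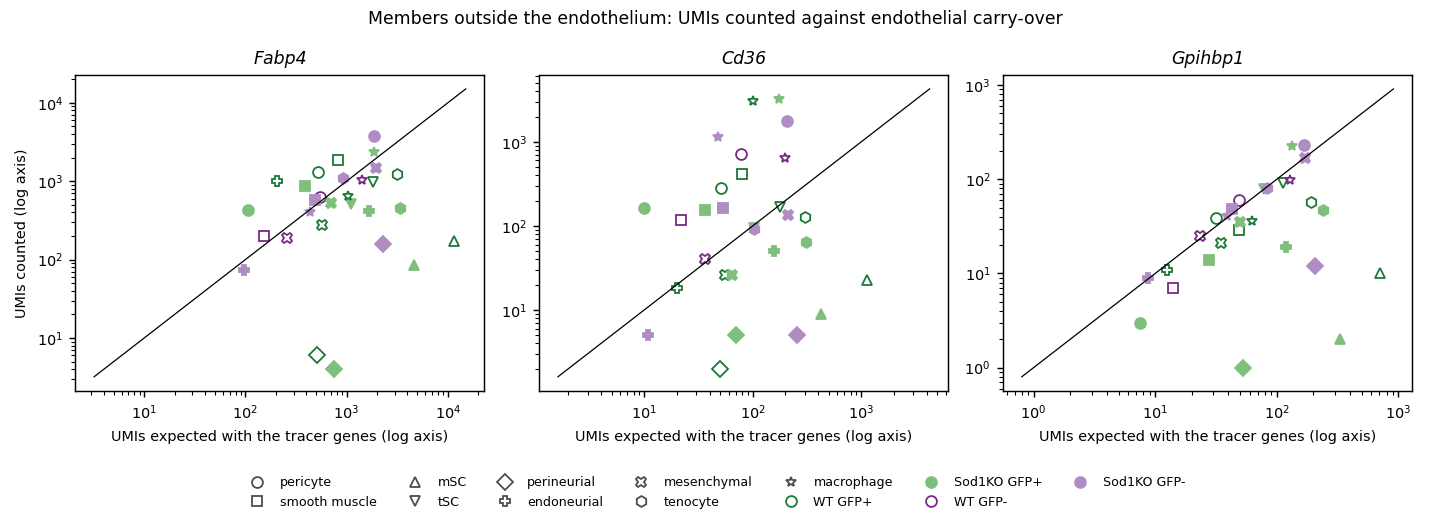
UMIs counted for a member in each group outside endothelium (vertical, log axis) against UMIs expected to come along with 6 endothelial genes (horizontal, log axis), with the line of equality. Many points of Fabp4 and Gpihbp1 lie on or under the line, while Cd36 in pericyte-like and macrophage-like cells lies above it.

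Sod1KO and WT were then compared within each class. In endothelial-like cells of the GFP+ sort (312 WT and 311 Sod1KO cells), 8 members had at least 20 UMIs. Of these, 7 were lower in Sod1KO with an interval clear of 0, where 12.3% of all genes were. The eighth, Slc27a1, had 11 UMIs in each library. More UMIs make an interval narrower, and Fabp4 had 82681 in WT and 51082 in Sod1KO. The 12.3% was not matched to the members for UMI number, so it is no like comparison. The 1 member past 2-fold was Angptl4. Among all genes so measured, 4.47% passed 2-fold in either direction and 1.64% were lower by that much. Angptl4 had 232 UMIs (49.5 CPM) in WT GFP+ and 58 UMIs (12.3 CPM) in Sod1KO GFP+, which is 4.01-fold lower (log2 interval [−2.44, −1.58]). Pparg differed by −0.91 [−1.11, −0.70], Cd36 by −0.77 [−0.82, −0.71] and Fabp4 by −0.70 [−0.71, −0.68]. Gpihbp1 and Fabp5 were lower by less, at −0.46 [−0.53, −0.40] and −0.43 [−0.50, −0.37], and Lpl stood at −0.40. The median over these members was −0.58, beside −0.02 over all genes. Erythroid genes, which come from red cells, summed to 2452 CPM in WT GFP+ and 11065 CPM in Sod1KO GFP+ endothelial-like cells, about 1% of the UMIs, and their part in the result was not tested.

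In the GFP- sort, which held more endothelial-like cells (628 WT and 1714 Sod1KO), no member was past 2-fold (0 of 9, where 11.9% of all genes were). Fabp4 (−0.02), Pparg (−0.01) and Gpihbp1 (−0.05) were nearly level, and the median over members was −0.02. Cd36 kept the direction of the GFP+ sort at −0.39 [−0.41, −0.36], as did Lpl at −0.21 and Angptl4 at −0.45 [−0.77, −0.12]. Fabp5 had the opposite sign, 0.36 [0.32, 0.39]. The classes compared were made of different subclusters: 3 given no subtype name held 93, 95 and 28 of the 628 WT cells and 8, 2 and 1 of the 1714 Sod1KO cells, and the second of them was led by fibroblast and tendon genes such as Fmod, Col1a1 and Tnmd. The capillary-like cells below, a subcluster without those cells, gave Fabp4, Cd36 and Fabp5 the same signs. Angptl4 was −0.10 [−0.57, 0.38] in them, an interval that holds 0, and Lpl was −0.09 [−0.15, −0.02].

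**Figure D3:**
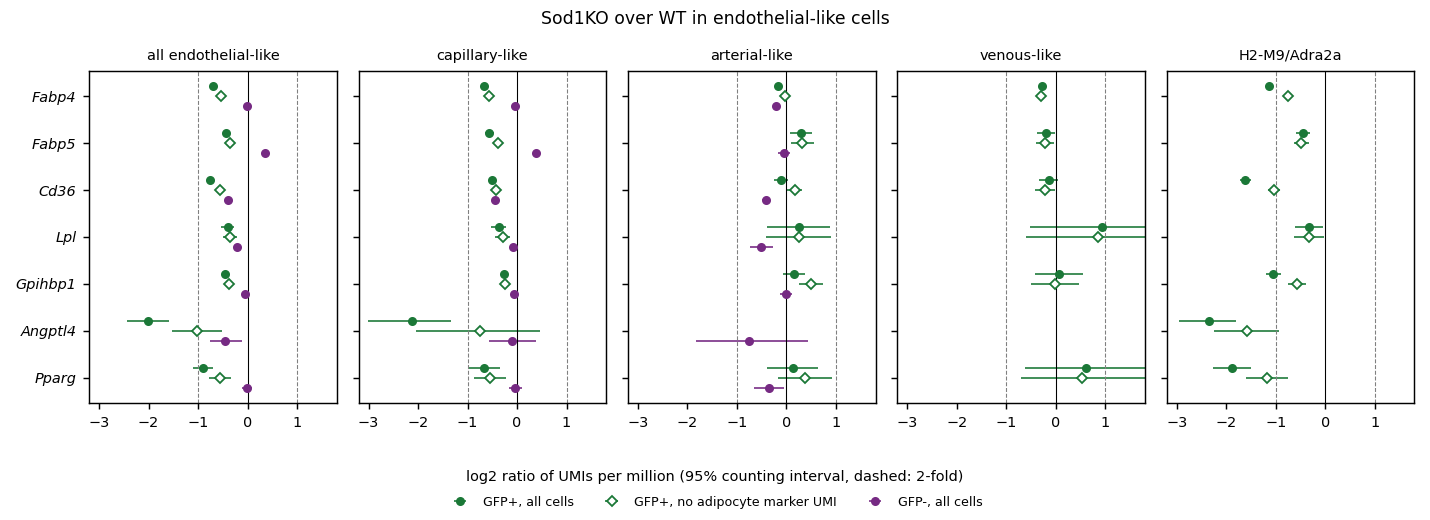
Log2 ratio of Sod1KO over WT for 7 members in all endothelial-like cells (first panel) and in their subtypes (other panels), for all GFP+ cells, for GFP+ cells without a UMI of an adipocyte marker, and for GFP- cells. Bars are 95% counting intervals and dashed lines mark 2-fold. In the first panel the Angptl4 ratio, 4.01-fold lower over all GFP+ cells, is −1.02 without the marker-bearing cells and −0.45 in GFP-, and the Fabp4, Cd36, Pparg and Gpihbp1 ratios also lie nearer to 0 without those cells.

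Adipocyte markers moved with these differences. The 7 markers (Adipoq, Cidec, Plin1, Lep, Retn, Adig and Cidea) summed to 20.9 CPM in endothelial-like cells of WT GFP+ with 7 of 7 detected, against 1.92 CPM in Sod1KO GFP+ (4 of 7, with Plin1, Lep and Cidea at 0), 1.57 CPM in WT GFP- and 1.60 CPM in Sod1KO GFP- (5 of 7 each). A UMI of any of them was present in 31 of 312 cells (9.94%) of WT GFP+, 5 of 311 (1.61%) of Sod1KO GFP+, 11 of 628 (1.75%) of WT GFP- and 35 of 1714 (2.04%) of Sod1KO GFP-. The 31 WT GFP+ cells held 140 of the 232 Angptl4 UMIs, at 206 CPM, and the remaining 281 cells stood at 22.9 CPM. Those 31 cells were also higher in Fabp4 (28558 against 15790 CPM), Cd36 (3175 against 1473 CPM) and Pparg (289 against 94.8 CPM), and as a class little different in Lpl (282 against 242 CPM). By subtype, Lpl of WT GFP+ was 717 against 465 CPM in capillary-like cells (13 and 146 cells). It was 149 against 147 CPM in a subcluster led by H2-M9 and Adra2a (12 and 43 cells). Without all marker-bearing cells the GFP+ ratios were −1.02 [−1.54, −0.51] for Angptl4, −0.55 for Pparg, −0.55 for Cd36, −0.54 for Fabp4, −0.38 for Gpihbp1 and −0.36 for Fabp5, and 1 of 8 members was still past 2-fold. The split was made after the values had been seen.

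Endothelial subtypes did not share these differences equally. In a subcluster led by H2-M9 and Adra2a (55 WT and 77 Sod1KO cells in GFP+), 5 of 7 members were past 2-fold lower, where 5.92% of all genes passed 2-fold in either direction and 2.34% were lower. Angptl4 went from 90.9 CPM in WT GFP+ to 17.7 CPM in Sod1KO GFP+ (−2.36), Pparg from 161 to 43.7 CPM (−1.88), Cd36 from 1723 to 562 CPM (−1.62), Fabp4 from 16399 to 7439 CPM (−1.14 [−1.17, −1.11]) and Gpihbp1 from 620 to 300 CPM (−1.05). Adipocyte markers there summed to 27.9 CPM in WT GFP+ (12 of 55 cells) and 0.55 CPM in Sod1KO GFP+ (1 of 77 cells). Without those cells 3 of 7 stayed past 2-fold (Angptl4 −1.58, Pparg −1.18 and Cd36 −1.04). Sod1KO GFP- cells of this subcluster held 9073 CPM of Fabp4 and 1087 CPM of Cd36, and WT GFP- had too few cells for a ratio.

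In capillary-like cells of the GFP+ sort (159 and 134 cells), 1 of 7 members was past 2-fold (background 5.12% in either direction and 2.86% lower): Angptl4, with 43.5 CPM in WT and 9.97 CPM in Sod1KO (−2.13). Without marker-bearing cells 17 and 10 Angptl4 UMIs remained and the ratio was −0.74 [−2.03, 0.47], an interval that holds 0. Fabp4 (−0.66), Fabp5 (−0.56) and Cd36 (−0.50) were lower in Sod1KO. Erythroid genes summed to 2113 CPM in WT GFP+ and 26784 CPM in Sod1KO GFP+ capillary-like cells, and their part in these ratios was not tested. In the GFP- sort 1 of 8 was past 2-fold (background 8.89% in either direction and 6.98% higher), Fabp3 with 2 UMIs in WT and 22 in Sod1KO, while Cd36 was lower (−0.44), Fabp5 higher (0.39) and Fabp4 level (−0.04). Arterial-like cells had none past 2-fold in either sort (0 of 6 and 0 of 7, backgrounds 6.24% and 8.99%), and their GFP+ ratios were −0.18 for Fabp4 and −0.11 for Cd36. Venous-like cells had none either (0 of 6, background 6.1%).

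The cells mixing endothelial and pericyte markers (123 WT and 117 Sod1KO cells in GFP+) had 1 member higher and 2 lower of 9 (background 4.68% in either direction, 2.72% higher and 1.96% lower). Angptl4 went from 63.2 to 15.9 CPM there (−1.99), and from 13.1 to 7.98 CPM in GFP- (−0.72), where 0 of 9 were past 2-fold (background 10.4%). Adipocyte markers were carried by 23 of 123 and 12 of 117 of the GFP+ cells, and without these the Angptl4 ratio was −0.85.

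In SCs, tSC-like cells had 4 of 8 members lower past 2-fold, where 11.8% of all genes passed 2-fold in either direction and 6.02% were lower. Of these, 3 were Fabp4, Cd36 and Gpihbp1 (15.5 and 7.1 CPM in WT and Sod1KO), and the expected carry-over of Gpihbp1 was 121% and 99.9% of its UMIs. The signs of Fabp4 and Gpihbp1 turned, to 0.14 and 0.46, when classes were assigned cell by cell. The fourth, Angptl4, had 449 UMIs (75.5 CPM) in WT and 363 UMIs (33.3 CPM) in Sod1KO, a ratio of −1.18 [−1.39, −0.98]. Different clusters hold most of the class in the 2 genotypes. The cluster led by Unc80 and Bche held 306 of 380 WT cells and 218 of 887 Sod1KO cells, and the cluster led by Ucn2 and Olig1 held 61 WT and 581 Sod1KO cells. Within the first, Angptl4 stood at 81.0 CPM (WT) and 68.0 CPM (Sod1KO), and within the second at 16.2 CPM (8 UMIs) and 19.8 CPM, so each cluster's intervals overlapped between genotypes. A tSC-like cluster led by Cfap299 and Epha5, almost all of it Sod1KO, had 2.16 CPM.

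Fabp5 and Slc27a1 were near level over the tSC-like class, with ratios of −0.01 [−0.11, 0.08] and −0.16 [−0.37, 0.05]. By cluster, the Ucn2/Olig1 cells were lower in Sod1KO: Fabp5 went from 406 CPM to 275 CPM and Slc27a1 from 108 CPM to 50.4 CPM, while the Unc80/Bche cells had 245 and 241 CPM of Fabp5 and 47.2 and 37.6 CPM of Slc27a1. In mSC-like cells 1 of 7 members was past 2-fold (background 3.97% in either direction and 1.74% higher), Lpl with 25 UMIs in WT and 33 in Sod1KO (1.09). The expected endothelial carry-over of Lpl was 651% and 242% of those UMIs, and the ratio was −0.39 with classes assigned cell by cell. That expected number is too high in this class. It came to 80.7 and 27.8 UMIs for Pparg in WT and Sod1KO, where 0 and 2 were counted. Whether the Lpl UMIs are background was therefore not tested. Slc27a1 was lower in Sod1KO mSC-like cells by −0.33 [−0.52, −0.14], Fabp5 was higher by 0.33 [0.18, 0.48], and the Angptl4 interval held 0 (0.18 [−0.07, 0.42]). The cluster mixing mSC and perineurial markers had 0 of 6 past 2-fold (background 4.92%) and perineurial-like cells 0 of 3 (background 11.3%).

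In the stroma, endoneurial-like fibroblasts (84 WT and 448 Sod1KO cells in GFP+) had 5 of 9 members past 2-fold, 4 lower and 1 higher, in a comparison where 16.4% of all genes were (5.65% lower and 10.7% higher). The higher one, Fabp3, had 1 and 31 UMIs, with 16 in 1 Sod1KO cell, and its interval held 0 (2.58 [−0.003, 7.93]). All 19 WT Pparg UMIs were in 1 cell. Without cells bearing an adipocyte marker, 3 of 8 members were lower and 2 higher, and the median went from −0.90 to −0.15. Lpl, with 50% of its UMIs spread over 14 WT and 63 Sod1KO cells, had 995 UMIs (715 CPM) in WT and 1940 UMIs (269 CPM) in Sod1KO, with a ratio of −1.41 [−1.52, −1.30]. Adipocyte markers summed to 167 CPM in WT GFP+ and 29.7 CPM in Sod1KO GFP+ here, and without the 3 and 8 marker-bearing cells the Lpl ratio was −1.35 [−1.47, −1.23]. Fabp4 was at 726 CPM in WT GFP+, but 3 marker-bearing cells held 932 of its UMIs and the other 81 cells held 78. Sod1KO GFP- endoneurial-like cells had 612 CPM of Lpl, nearer to the WT GFP+ value.

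Mesenchymal-like cells, the main Lpl class, differed little in Lpl in GFP+: 633 CPM in WT and 640 CPM in Sod1KO (0.02 [−0.05, 0.08]). In GFP- (42 WT and 768 Sod1KO cells) they were lower in Sod1KO, with 874 CPM in WT and 672 CPM in Sod1KO (−0.38 [−0.50, −0.26]). Their Myoc/Fst cluster had 0 of 6 members past 2-fold in GFP+ (background 5.23%) and 0 of 8 in GFP- (12.5%). Its Lpl ratio was 0.05 in GFP+ and −0.23 in GFP-. The Inmt/Gdf10 cluster was lower in Lpl in Sod1KO GFP+ (399 CPM) than in WT GFP+ (678 CPM, −0.77). It had 4 of 8 members past 2-fold higher (background 5.8% in either direction and 4.62% higher), among them Fabp4 (2.82) and Fabp5 (2.30). Here 5 of 433 Sod1KO cells carried adipocyte markers and held 343 of the 410 Fabp4 UMIs, and without them the ratios were 0.26 for Fabp4 and −0.41 for Fabp5. The count then fell to 1 of 7 members higher, and the median went from 1.14 to −0.31. Over all mesenchymal-like cells 1 of 9 (Fabp5) was past 2-fold higher in GFP+ (background 4.99% in either direction and 3.77% higher) and 2 of 8 lower in GFP- (12.9% and 5.1% lower), and the Pi16 cluster had 2 of 6 lower (5.54% and 1.95% lower). Without marker-bearing cells the GFP+ count for mesenchymal-like cells was 0 higher and 1 lower: Fabp5 was −0.36 and Fabp4 turned from 0.43 to −1.02. Tenocyte-like cells had 2 of 9 lower (4.73% and 1.62% lower): Fabp4 at 63.0 and 14.5 CPM and Cd36 at 6.5 and 2.1 CPM. These 2 ratios (−2.12 and −1.65) depended on the processing. Over 9 settings Fabp4 ran from −2.13 to −0.14 and Cd36 from −1.70 to −0.17.

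In pericyte-like cells Cd36 was lower in Sod1KO in both sorts (−0.50 and −0.40). Pericyte-like cells had 2 of 6 members past 2-fold in GFP+ (both lower, background 11.3% in either direction and 5.42% lower) and 3 of 7 in GFP- (2 higher and 1 lower, background 8.6%, with 5.26% higher and 3.34% lower), among them Gpihbp1 in GFP+ with 39 and 3 UMIs and Pparg in GFP- with 5 and 64 UMIs. Adipocyte markers there summed to 15, 67.3, 1.72 and 23.1 CPM in WT GFP+, Sod1KO GFP+, WT GFP- and Sod1KO GFP-. Without marker-bearing cells 2 of 6 members were past 2-fold lower in GFP+ (Fabp4 −1.91, Gpihbp1 −3.19). In GFP- 3 were then higher and 1 lower of 7, since Fabp4 went from 0.93 to 1.04. The GFP+ comparison had 41 WT and 50 Sod1KO cells, whose endothelial markers summed to 571 and 184 CPM. Over the settings its Fabp4 ratio ran from −1.94 to −0.76 and its Gpihbp1 ratio from −3.71 to −0.40. Smooth muscle-like cells had 0 of 9 past 2-fold in GFP+ (background 5.32%) and 1 of 8 in GFP- (Cd36, lower, background 8.89% in either direction and 3.05% lower), and the Fabp3 intervals held 0 in both sorts (0.17 [−0.04, 0.37] and 0.57 [−0.08, 1.29]). In macrophage-like cells Cd36 was close between genotypes (−0.14 in GFP+ and −0.24 in GFP-), while 2 of 8 members were past 2-fold higher in GFP+ (background 7.54% in either direction and 4.24% higher) and 2 of 7 lower in GFP- (13.8% and 8.88% lower), Fabp4 and Gpihbp1 each time. The unnamed cluster led by Cfd and Retn had 3 of 7 members higher in Sod1KO GFP+ (14.8% and 6.55% higher): Lpl (229 and 460 CPM), Pparg (47.7 and 105 CPM) and Angptl4 (4 and 16 UMIs). A single Sod1KO cell held 116 of the 140 Lpl UMIs and a single cell 21 of the 32 Pparg UMIs, and without it the Sod1KO levels were 91.3 and 41.8 CPM, no longer past 2-fold higher for either. The adipocyte markers of this cluster stood at 133 and 1735 CPM in the same libraries. Their part in the result was not tested. In its GFP- cells none of 6 was past 2-fold (16.8%).

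Further gene lists differed among themselves in endothelial-like cells. Their median ratios in GFP+ ran from −0.53 to 0.27, beside −0.58 over the members. Among 14 further partners of the lipase system, 7 were measured in GFP+, with a median ratio of −0.09 (−0.02 over all genes) and 1 past 2-fold, where 4.47% of all genes were. That gene, Apoc1, an apolipoprotein of triglyceride-rich particles, was the only gene of the lists past 2-fold in the same direction in both sorts, on few counts (16 and 5 UMIs in GFP+, −1.68, and 21 and 30 UMIs in GFP-, −1.11). Endothelial genes of fatty acid transport (10 of 10 measured, median −0.22), PPAR targets (12 of 14, −0.16), lipid droplet genes (10 of 12, −0.15) and acyl-CoA synthetases with other fatty acid transport proteins (6 of 10, −0.01) had none past 2-fold in GFP+. In GFP- their medians were −0.10, −0.20, 0.05 and −0.07 (−0.01 over all genes), and 2 lipid droplet genes were past 2-fold, 1 in each direction. Glucocorticoid-responsive genes had the lowest median in both sorts, −0.53 and −0.44 over 10 genes, with 0 and 1 past 2-fold. Hypoxia genes (8 of 9 measured) had medians of 0.27 and 0.06, with 0 and 3 past 2-fold higher, where 4.47% and 11.9% of all genes were past 2-fold in either direction. Nuclear receptors (6 of 8 measured) had −0.41 and −0.18, with 0 and 1 past 2-fold. Lipoprotein receptors (5 of 5) had −0.22 and −0.09, with 1 higher in GFP+ and 1 lower in GFP-. Other fatty acid binding proteins (5 of 10) had 0.12 and 0.40, with 1 higher and 1 lower in GFP+ and none past 2-fold in GFP-. Chosen after their values were seen, Aqp7, a glycerol channel, went from 175 to 89.2 CPM in GFP+ (−0.97) and from 282 to 165 CPM in GFP- (−0.78), and Tcf15, a transcription factor that with MEOX2 controls fatty acid transport genes in muscle endothelium, went from 422 to 236 CPM (−0.84) and from 654 to 439 CPM (−0.57). These 2 were lower in Sod1KO in both sorts, like Cd36.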

How the data were processed

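The authors deposited raw UMI counts per gene and cell barcode for 4 10x Genomics 3' libraries as 10x count matrices. The submitters' notes name mm10, Cell Ranger 7.1.0 and Seurat 4.30. The genome release is described differently in the methods, so RefSeq coordinates (GRCm38.p6) give gene positions only. Library totals were 21959719 to 105954116 UMIs.

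Cells with more than 200 genes and under 10% mitochondrial UMIs were kept. Doublets were removed by simulated-doublet neighbor scores (0.8% per 1000 barcodes, 50 neighbors). Cells were clustered on 2000 variable genes without the members (30 components, 20 neighbors, Leiden resolution 1, sub-clusters 0.2). A cluster was named from at least 3 markers at 20 CPM and 2-fold over the rest. The sub-cluster resolution and the naming limits were set after the clusters were seen. The 9 members and all gene lists were chosen with earlier results of these data known.

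UMIs were summed per class and library and given as CPM with exact Poisson intervals. Ratios carry a conditional binomial interval. Both use a confidence level of 95% and cover counting error only. A ratio needed 20 cells per library and 20 UMIs over both, an empty cell sum took a floor of 3 UMIs, and past 2-fold is a size limit, not a test. Mice were pooled before sorting, so no spread between mice is measured. A pathway gene was named if it was past 2-fold in the same direction in both sorts, and the 3 genes most like each member by r were taken. Those of Slc27a1 are not reported here. The step that computes ratios was checked on simulated counts. Alternatives changed doublet removal, cell filters, clustering, class assignment, scaling, the UMI minimum, the fold limit, carry-over and clusters of 1 library. Matrices were read with numpy 2.4.6 and pandas 2.3.3 under Python 3.11.15. Intervals came from scipy 1.17.1, components and neighbors from scikit-learn 1.9.0, and clusters from leidenalg 0.10.2 on an igraph 0.11.9 graph. Figures were drawn with matplotlib 3.10.9.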

Additional observations from a re-analysis of the deposited data

Results flagged for a closer look

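In 7 cases the ratio of Sod1KO over WT had opposite signs in the GFP+ and the GFP- sort, with both counting intervals clear of 0. With 1 library per group the difference was not tested in any of them. Fabp5 in endothelial-like cells was −0.43 in GFP+ and 0.36 in GFP-, and in capillary-like cells −0.56 and 0.39. Fabp5 in pericyte-like cells was −0.89 and 1.67, and Fabp4 in pericyte-like cells was −1.32 and 0.93. Fabp4 in mesenchymal-like cells was 0.43 and −0.92, where 14 of 795 Sod1KO GFP+ cells carried an adipocyte marker and the GFP+ ratio without marker-bearing cells was −1.02. In macrophage-like cells Fabp4 was 1.61 and −2.48, and Gpihbp1 was 2.41 and −2.37. The Fabp4 UMIs expected alongside endothelial genes there came to 79% to 159% of those counted in the 4 libraries.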

How the results depend on the processing

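No paired analysis was possible because each group was 1 library. Counts of members past 2-fold moved most with the fold limit and the removal of doublets. No share over all genes was computed for the alternatives. The counts below, of members and of pathway genes, thus show only how a count moved with the setting. In the mSC-, tSC-, mesenchymal-, tenocyte-, perineurial-, smooth muscle-, pericyte- and macrophage-like classes (without sub-clusters, endoneurial-like and mixed cells) the count was 20, and 34 without doublet removal or 35 at a 1.5-fold limit. In capillary-, arterial- and venous-like cells it was 2, and 6 without doublet removal, 5 at Leiden resolution 0.5, 5 with classes assigned cell by cell, 4 with no minimum of UMIs, 7 at 1.5-fold and 1 without adipocyte-marker cells, an alternative chosen after seeing the data. In GFP+ endothelial-like cells it was 1, and 2 cell by cell, 2 with no minimum and 4 at 1.5-fold. In the GFP- sort it was 0, and 1 (Fabp3) without doublet removal, with stricter cell filters, at Leiden resolution 0.5 and without clusters held by 1 library. Pathway genes past 2-fold numbered 13, and 21 with no minimum and 36 at 1.5-fold. Of 328 levels, 267 could be matched and 200 stayed within 1.5-fold with classes assigned cell by cell. Of the 27 most alike genes, 23 were among the 10 nearest over the groups that could be rebuilt, 15 under stricter filters and 9 cell by cell. Among ratios past 2-fold, signs turned for Lpl in mSC-like cells (−0.39 cell by cell), Fabp4 in tSC-like cells (0.14 cell by cell), Gpihbp1 in tSC-like cells (0.46 cell by cell, 0.27 without clusters held by 1 library) and, without adipocyte-marker cells, Fabp5 in mesenchymal-like cells (−0.36) and their Inmt/Gdf10 cluster (−0.41). Of ratios on either side of 2-fold, 32 changed sign cell by cell, 32 with the mean of per-cell CPM and 17 without adipocyte-marker cells, among them Fabp4 in mesenchymal-like cells. The causes were not tested. The GFP+ endothelial Fabp4 ratio stayed between −0.70 and −0.51 over 9 settings. Without clusters held by 1 library the Angptl4 ratio in tSC-like cells was −0.25. Depth limited Fabp3 in endothelium, Pparg in SCs and all members of WT GFP- classes under 20 cells.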
